A study of Homo sapiens with 12 samples.

Results

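The autophagy machinery genes examined here are 42 genes whose proteins build the autophagosome, load it with cargo and bring it to the lysosome. They were chosen by name, from a list of members that was given, among the entries of the deposited gene table that lie on assembled chromosomes. All 42 were found, once each, among 46931 genes in the table, and all 42 passed the filter on low counts that left 18143 genes tested. MCF10A, an immortalised but non-cancerous human mammary epithelial cell line labelled wild type, carried either control siRNA at 22 nM or sets of siRNA that target YAP and TAZ, at 11 nM. At 48 h after transfection the cells were given DMSO, the solvent, or XMU-MP1 at 5 µM, an inhibitor of the kinases MST1 and MST2, and were harvested 6 h later. The 4 groups of 3 libraries are siC_DMSO (control siRNA, DMSO), siC_XMU (control siRNA, XMU-MP1), siYT_DMSO (YAP and TAZ siRNA, DMSO) and siYT_XMU (YAP and TAZ siRNA, XMU-MP1), with library letters a, b and c. All groups share 1 cell line and a transfection, and there is no untransfected group.

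In macroautophagy a membrane sheet, the phagophore, forms in the cytoplasm, closes around cargo and fuses with lysosomes. The ULK kinase complex starts the process and the class III PI3-kinase complex marks the membrane with phosphatidylinositol 3-phosphate. WIPI proteins read that mark, and ATG2 and ATG9 proteins supply lipid. An enzyme cascade that resembles ubiquitin conjugation then attaches the ATG8 proteins (the LC3 and GABARAP families) to lipid, ATG4 proteases prepare and recycle them, and cargo receptors such as SQSTM1 (p62) bind to them. YAP and TAZ, the products of YAP1 and WWTR1, are coactivators that bind TEAD transcription factors, and MST1 and MST2 are upstream kinases of the Hippo pathway that restrains them. The series title concerns a non-canonical branch of that pathway. The transcript levels reported below do not measure autophagic flux.

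Libraries held 8243351 to 67953633 counts, and the lowest was siYT_XMU c, in which ribosomal RNA took 35.0% of counts. The ribosomal share was 1.05 to 2.15% in siC_DMSO, 1.02 to 2.52% in siC_XMU, 1.86 to 8.35% in siYT_DMSO and 2.65 to 5.38% in the other libraries of siYT_XMU. As annotated there, 8 members overlap a gene on the opposite strand that averages at least 100 counts per library, namely ATG3, ATG4D, ATG7, ATG10, ATG13, ATG16L2, SQSTM1 and WIPI1. The library kit keeps strand, but the strand setting of the counting is not stated, so their values are less certain. The targeted genes were low where the labels put the siRNA. YAP1 stood at 193 to 223 CPM (counts scaled to library size, scaled between libraries by TMM) in siC_DMSO and at 7.84 to 12.6 CPM in siYT_DMSO. WWTR1 stood at 24.0 to 38.2 CPM in siC_DMSO and at 3.66 to 4.47 CPM in siYT_DMSO. For each gene and either drug arm the exact two-sided permutation test gave p = 0.1, the smallest that 3 against 3 libraries allow. All 8 mammary epithelial markers examined were detected, with summed levels of 5864 to 16441 CPM over the 12 libraries. In either drug arm 2 of these 8 rose after the knockdown and 4 fell. KRT17, a basal keratin, rose by 3.04 ± 0.44 on the log2 scale in DMSO and CDH1 (E-cadherin) by 1.65 ± 0.25, while the luminal keratins KRT8 and KRT18 fell by 2.15 and 1.88. EPCAM also fell, as did KRT5, another basal keratin, from a mean of 4620 CPM in siC_DMSO to 1536 CPM in siYT_DMSO. The basal keratins thus moved in opposite directions. The 4 leukocyte markers summed to 6.89 to 52.6 CPM, the 4 fibroblast markers to 11.1 to 132 CPM and the 3 endothelial markers to 0.854 to 8.49 CPM. Of these, 1 fibroblast marker, PDGFRA, was called higher after the knockdown in either arm, and 2 endothelial markers, PECAM1 and VWF, in XMU-MP1. The 1 leukocyte marker tested was also called higher after the knockdown in XMU-MP1 (log2 fold change 1.74). With XMU-MP1 in control siRNA that marker was called lower (-2.08). The part of these markers in the results on autophagy genes was not tested.

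In control siRNA with DMSO the members spanned a wide range of levels per length, given as FPKM (fragments scaled to transcript length and depth). GABARAP, an ATG8 protein, was the most abundant at 101 ± 7.11 FPKM (SD, n = 3), followed by GABARAPL2 at 47.9 ± 5.11 FPKM. SQSTM1 came next at 42.9 ± 29.2 FPKM, ahead of ATG101, a subunit of the ULK complex, at 37.8 ± 1.49 FPKM and MAP1LC3B, the LC3 protein most used as an autophagosome marker, at 34.9 ± 1.96 FPKM. The kinase ULK1 itself ranked 25 of 42 at 5.90 ± 0.197 FPKM. The lowest members were WIPI1 at 0.931 ± 0.0272 FPKM and ATG10, the E2-like enzyme of the ATG12 branch, at 0.735 ± 0.112 FPKM. Of the 41 pairs of neighbours in this order, 33 had overlapping libraries. The 8 pairs without overlap were GABARAP over GABARAPL2, WIPI2 over ATG5, ATG5 over ATG2A, PIK3R4 over ATG12, ATG12 over ULK1, ULK1 over STX17, ULK2 over WIPI1 and WIPI1 over ATG10.

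**Figure D1:**
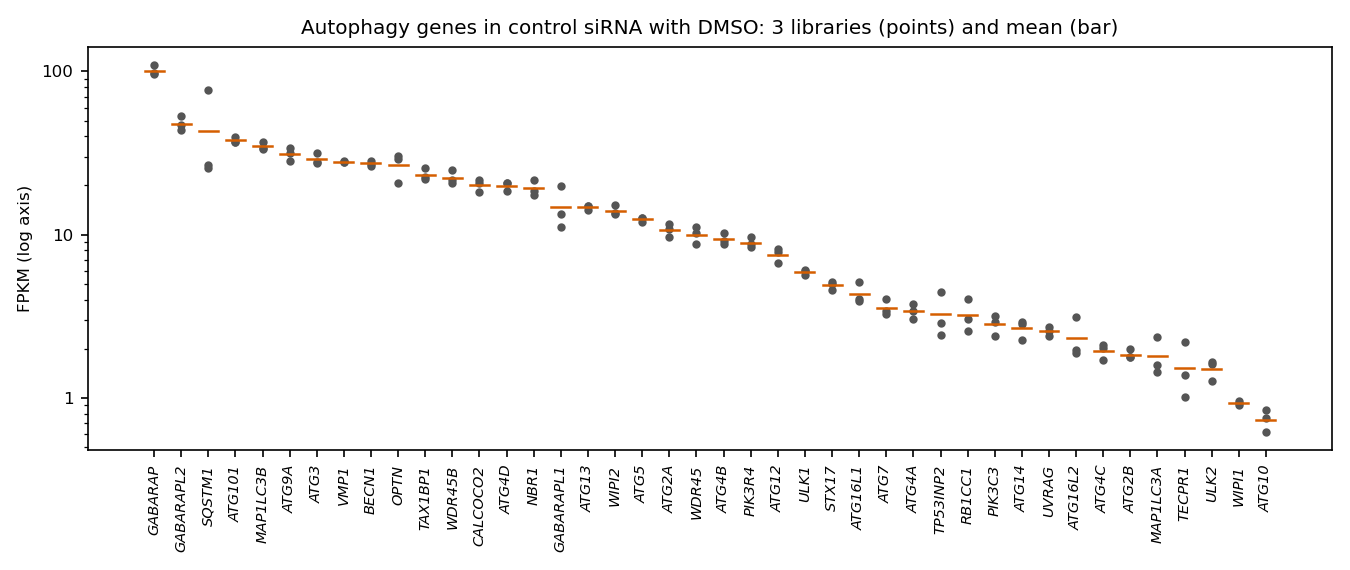
Level of each of the 42 autophagy genes in control siRNA with DMSO, in FPKM on a log axis, ordered by the mean; points are the 3 libraries and bars their mean. GABARAP lies highest at a mean of 101 FPKM and ATG10 lowest at 0.735 FPKM, and the points of SQSTM1 are the most spread among the abundant genes.

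The comparison of siYT_DMSO with siC_DMSO asks what loss of YAP and TAZ does to these transcripts. After the knockdown 26 of the 42 members rose (adjusted p under 0.05 over all genes tested, edgeR quasi-likelihood test), which is 61.9% of them beside 16.1% of all genes tested. ATG3 and ATG4C fell, which is 4.76% of the members beside 16.0% of all genes, and 14 members passed in neither direction. The median log2 fold change was 0.85 over the members and 0.02 over all genes tested. The libraries of the groups did not overlap for 24 of the 26 that rose and for both that fell. Rises without overlap made up 57.1% of the members and 15.7% of all genes tested, and falls without overlap 4.76% and 15.9%. Among all genes called, 97.1% of those higher and 99.3% of those lower had no overlap, so the absence of overlap is common to called genes in this comparison. In bulk RNA, fewer or more cells of a kind and less or more RNA per cell cannot be told apart. The ribosomal share of counts was higher in 2 of 3 libraries of siYT_DMSO than in any of siC_DMSO, and its part in the result was not tested. Without siYT_XMU c, which is in the fit only through the shared estimate of the spread, 27 members rose and 2 fell. Over all genes that fit called 3487 higher and 3612 lower, where the fit of 12 libraries called 2929 and 2897.

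**Figure D2:**
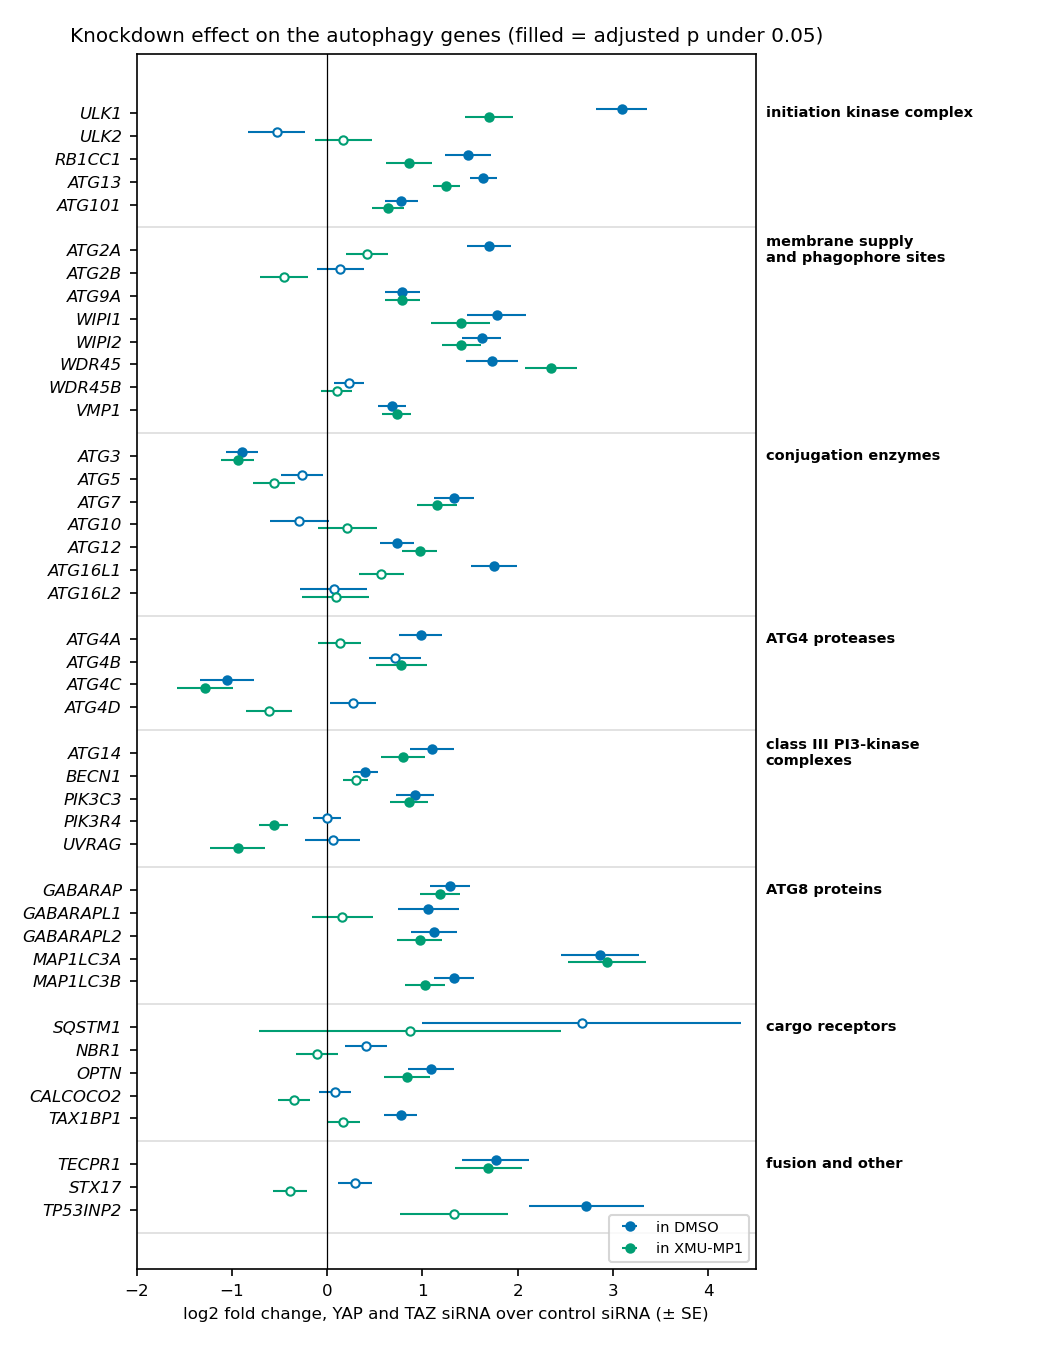
Log2 fold change (± SE) of each of the 42 genes after YAP and TAZ siRNA, in DMSO (blue) and in XMU-MP1 (green), grouped by role; filled points have an adjusted p under 0.05. Most points lie to the right of 0, ULK1 reaches 3.09 in DMSO, ATG3 and ATG4C lie to the left in either drug arm, and SQSTM1 has the widest error.

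In the initiation complex 4 of 5 members rose. ULK1 (GRCh38.p13, chromosome 12, 131894622 to 131923150, plus strand), the kinase that starts autophagosome formation, had 27.3, 29.5 and 29.0 CPM in libraries a, b and c of siC_DMSO, while siYT_DMSO had 182, 252 and 296 CPM. Every knockdown library was several times above every control library, and the log2 fold change of 3.09 ± 0.27 (SE, adjusted p = 9.05e-06, edgeR) was the largest of the 42. ATG13, the adaptor that holds ULK1 in its complex, was at 111, 112 and 106 CPM (libraries of siC_DMSO) against 300.4, 373 and 352 CPM (libraries of siYT_DMSO). It rose by 1.64 ± 0.14 on the log2 scale (adjusted p = 9.66e-06, edgeR). RB1CC1 (FIP200), the scaffold subunit, rose by 1.48 ± 0.24 and ATG101 by 0.78 ± 0.17 on the log2 scale. ULK2, the paralog of ULK1, was at 12.7 ± 1.74 CPM (SD, n = 3) in siC_DMSO and 8.81 ± 2.92 CPM in siYT_DMSO, and its log2 fold change of -0.53 ± 0.30 did not pass (adjusted p = 0.214, edgeR).

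Among the genes for membrane supply and phagophore sites 6 of 8 rose. WIPI1, a reader of phosphatidylinositol 3-phosphate, had values of 3.86, 3.67 and 3.73 CPM for siC_DMSO, next to 14.1, 10.9 and 13.8 CPM for siYT_DMSO, a log2 fold change of 1.78 ± 0.31 (adjusted p = 0.000983, edgeR). WDR45, a WIPI protein encoded on the X chromosome, measured 16.0, 20.4 and 18.6 CPM under siC_DMSO and 50.8, 70.9 and 61.2 CPM under siYT_DMSO, a log2 fold change of 1.73 ± 0.27 (adjusted p = 0.000405, edgeR). The groups did not overlap for either gene. WIPI2, which recruits ATG16L1 to the phagophore, rose by 1.62 ± 0.20 on the log2 scale, and ATG2A, a lipid transfer protein, by 1.70 ± 0.23. ATG9A, the membrane protein that arrives on vesicles, and VMP1, a scramblase of the endoplasmic reticulum, rose less, by 0.79 ± 0.18 and 0.68 ± 0.15. The paralogs ATG2B and WDR45B had log2 fold changes of 0.14 ± 0.25 and 0.23 ± 0.16 and did not pass.

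The class III PI3-kinase genes moved less. PIK3C3 (VPS34), the lipid kinase, rose by 0.92 ± 0.20 on the log2 scale and ATG14, the subunit that directs the complex to autophagy, by 1.10 ± 0.23. BECN1 (Beclin 1) rose by 0.40 ± 0.13 (adjusted p = 0.0363, edgeR), and this call was lost in 8 of the other settings tried, with adjusted p up to 0.151. The regulatory subunit PIK3R4 (0.00 ± 0.15) and UVRAG, which replaces ATG14 in a second form of the complex (0.06 ± 0.29), did not pass.

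All 5 ATG8 genes rose. MAP1LC3A, the least abundant of them, was at 1.87, 1.71 and 2.78 CPM (libraries of siC_DMSO) against 17.7, 13.4 and 15.3 CPM (libraries of siYT_DMSO). Its log2 fold change of 2.86 ± 0.41 (adjusted p = 0.000256, edgeR) was second among the members to that of ULK1. MAP1LC3B had values of 65.5, 72.1 and 64.6 CPM for siC_DMSO, next to 120.2, 206 and 184 CPM for siYT_DMSO, a log2 fold change of 1.33 ± 0.21 (adjusted p = 0.000498, edgeR). GABARAP measured 116, 130.3 and 114 CPM under siC_DMSO and 243, 319 and 319.7 CPM under siYT_DMSO, and rose by 1.29 ± 0.21 on the log2 scale. Each of these genes was higher in every knockdown library than in any control library. GABARAPL2 rose by 1.12 ± 0.24. GABARAPL1 was at 22.9, 41.5 and 27.9 CPM (libraries of siC_DMSO) against 41.4, 92.0 and 58.4 CPM (libraries of siYT_DMSO). These libraries overlapped, and its call (log2 fold change 1.06 ± 0.32, adjusted p = 0.0240, edgeR) was lost without siC_DMSO a, siC_DMSO c or siYT_DMSO b, with adjusted p of 0.102, 0.0857 and 0.134. Reads of MAP1LC3B may be shared with its near-identical copy MAP1LC3B2, which stood at 2.23 ± 0.127 CPM (SD, n = 3) in siC_DMSO and rose by 1.16 ± 0.35 on the log2 scale. The call of MAP1LC3B2 did not hold in every fit without 1 library (adjusted p up to 0.0902, edgeR).

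The conjugation enzymes and the ATG4 proteases were the roles in which members moved in opposite directions. ATG16L1, which places the ATG12-ATG5 conjugate on the membrane, had values of 12.4, 16.0 and 12.2 CPM for siC_DMSO, next to 44.6, 36.2 and 56.3 CPM for siYT_DMSO, a log2 fold change of 1.75 ± 0.24 (adjusted p = 0.000199, edgeR). ATG7, the E1-like enzyme that activates both ATG8 proteins and ATG12, rose by 1.33 ± 0.21, and ATG12 by 0.73 ± 0.18. ATG3, the E2-like enzyme that hands ATG8 proteins to lipid, fell. It measured 86.2, 75.8 and 76.9 CPM under siC_DMSO and 37.7, 45.7 and 45.2 CPM under siYT_DMSO, a log2 fold change of -0.89 ± 0.17 (adjusted p = 0.00182, edgeR). The transcripts of ATG7, which acts before ATG3 in the cascade, and of the ATG8 proteins that ATG3 hands on were called higher. That of ATG3 was lower in every library of siYT_DMSO than in any of siC_DMSO. ATG5, ATG10 and ATG16L2 had log2 fold changes of -0.26 ± 0.22, -0.29 ± 0.31 and 0.07 ± 0.35 and did not pass. Of the proteases, ATG4A rose by 0.98 ± 0.23 and ATG4C, which had 8.09, 10.1 and 9.59 CPM for siC_DMSO, next to 4.84, 4.23 and 4.37 CPM for siYT_DMSO, fell by 1.05 on the log2 scale (SE 0.28, adjusted p = 0.0137, edgeR). The call of ATG4C was lost without siC_DMSO b (adjusted p = 0.0588) and without siYT_DMSO b (adjusted p = 0.0528). ATG4B (0.71 ± 0.27, adjusted p = 0.0665, edgeR) and ATG4D (0.27 ± 0.24) did not pass, although the libraries of ATG4B did not overlap between the groups.

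Of the 5 cargo receptors OPTN, a receptor for damaged mitochondria and bacteria, rose by 1.09 ± 0.24 on the log2 scale and TAX1BP1, a receptor for protein aggregates, by 0.77 ± 0.17. NBR1, a partner of SQSTM1, and CALCOCO2 (NDP52), a receptor for invading bacteria, had log2 fold changes of 0.41 ± 0.22 and 0.08 ± 0.17 and did not pass. TECPR1, a tether between autophagosomes and lysosomes, was at 6.19, 8.49 and 13.6 CPM (libraries of siC_DMSO) against 32.8, 32.9 and 31.0 CPM (libraries of siYT_DMSO), a log2 fold change of 1.77 ± 0.35 (adjusted p = 0.00239, edgeR). TP53INP2 (DOR), which binds ATG8 proteins, had values of 10.8, 16.8 and 9.20 CPM for siC_DMSO, next to 75.7, 151 and 16.7 CPM for siYT_DMSO. Its log2 fold change of 2.72 ± 0.60 passed (adjusted p = 0.00433, edgeR), but siYT_DMSO c lay at the level of siC_DMSO b. STX17, the SNARE that closed autophagosomes use for fusion, had a log2 fold change of 0.29 ± 0.18 and did not pass.

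SQSTM1 was the member whose libraries disagreed most. It measured 74.4, 226 and 78.1 CPM under siC_DMSO and 39.5, 222 and 203 CPM under siC_XMU. It stood at 383, 1147 and 878 CPM in siYT_DMSO, every value above those of both control siRNA groups, and at 2.52, 845 and 0.00 CPM in siYT_XMU. Libraries a and c of siYT_XMU held 86 and 0 counts of this otherwise abundant gene, and library b held 43698. With a spread of that size the log2 fold change of 2.67 ± 1.67 in DMSO did not pass (adjusted p = 0.257, edgeR), and it passed when only the compared groups were fitted (2.68, adjusted p = 0.00831) or without siYT_XMU b (2.67, adjusted p = 0.0188). Without siYT_XMU b the knockdown in XMU-MP1 gave -6.44 (adjusted p = 0.00177, edgeR), against 0.87 ± 1.58 with it, and XMU-MP1 after the knockdown gave -8.81 (adjusted p = 0.00216, edgeR), against -1.50 ± 1.61 with it. The rule by which reads were given to genes is not known from the labels, and a count of 0 here need not mean that the transcript was absent. MGAT4B and MRNIP, on the opposite strand, overlap SQSTM1 in the table. In libraries a, b and c of siYT_XMU MGAT4B had 4310, 6736 and 413 counts, and MRNIP had 0, 340 and 0. Their part in the values of SQSTM1 was not tested.

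**Figure D3:**
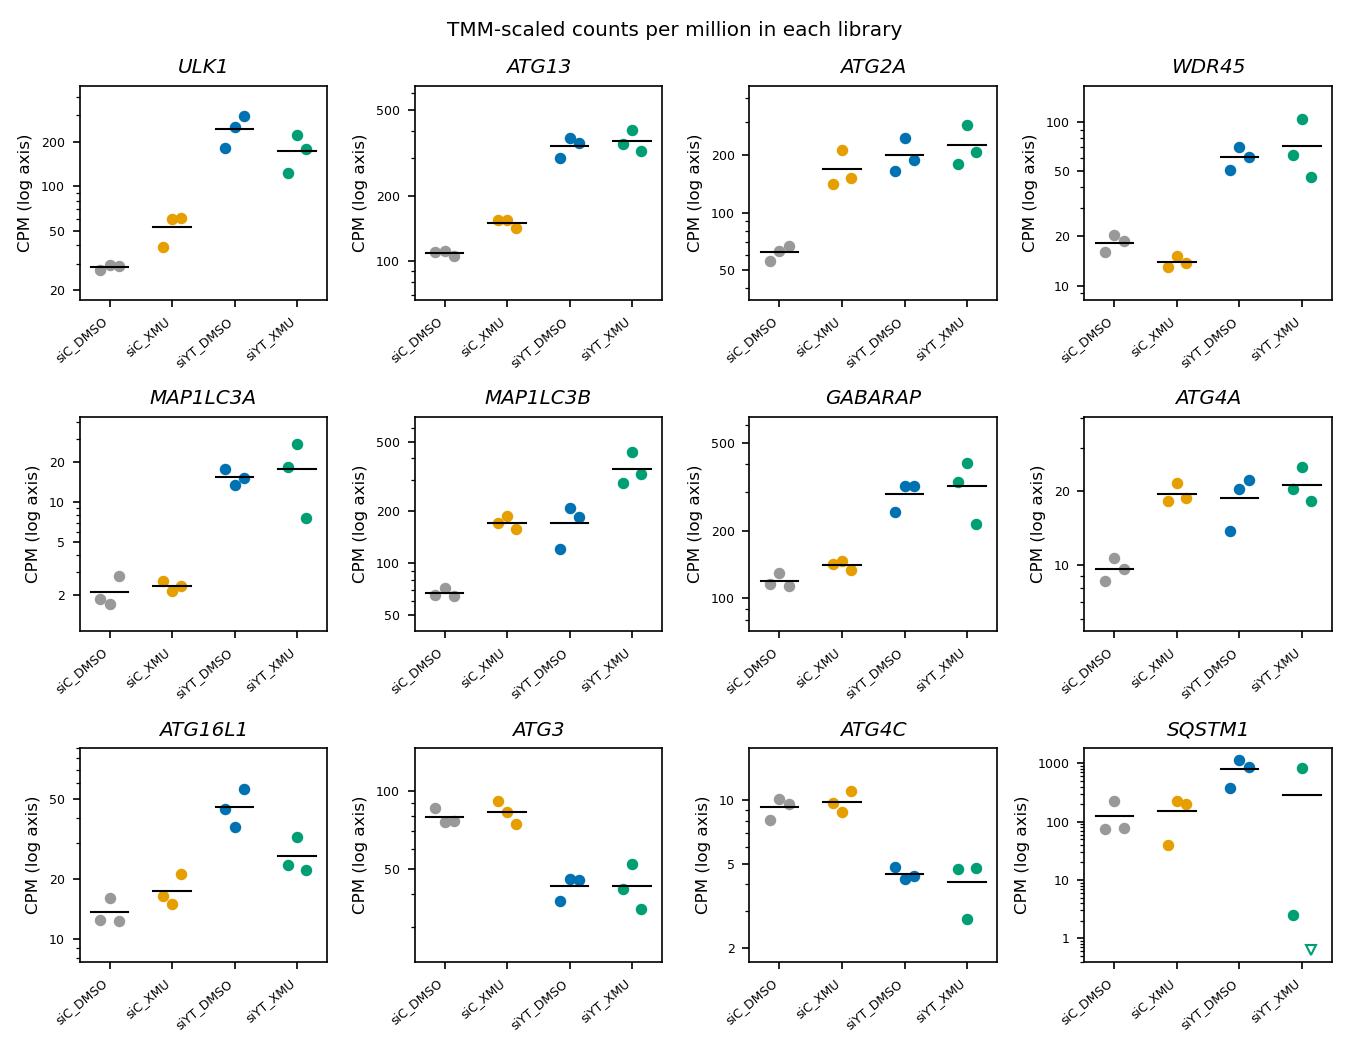
CPM (log axis) of 12 autophagy genes in each library of the 4 groups; points are libraries, black bars means of 3, and the open triangle is a count of 0 drawn at the level that 3 counts would give. ULK1, ATG13, WDR45, MAP1LC3A and GABARAP are higher in all knockdown libraries than in any control siRNA library, MAP1LC3B steps up with the knockdown and with XMU-MP1, ATG3 and ATG4C are lower after the knockdown, and SQSTM1 is scattered.

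In XMU-MP1 the knockdown was compared in libraries that the DMSO comparison does not contain. Here 20 of 42 members rose, 47.6% beside 17.7% of all genes tested, and 4 fell, 9.52% beside 18.6%. The median log2 fold change was 0.69 over the members and 0.04 over all genes. Of the 26 members that rose in DMSO, 19 also rose in XMU-MP1, which is 73.1% of the former and 95.0% of the latter. Over all genes tested the shared rises were 64.5% and 58.7% of the respective lists. ATG4B passed in XMU-MP1 (0.78 ± 0.27, adjusted p = 0.0439, edgeR) and not in DMSO (0.71 ± 0.27, adjusted p = 0.0665, edgeR), with nearly the same fold, and is named after its value was seen. Its call in XMU-MP1 was lost in 12 other settings, and 6 other settings called it in DMSO (adjusted p of 0.00667 to 0.0454). The ribosomal share of counts was higher in all 3 libraries of siYT_XMU than in any of siC_XMU, and its part in the result was not tested. Without siYT_XMU c the counts were again 20 and 4. Over all genes that fit called 3710 higher and 3602 lower, where the fit of 12 libraries called 3219 and 3381.

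MAP1LC3A had the largest rise in XMU-MP1. It was at 2.55, 2.14 and 2.35 CPM (libraries of siC_XMU) against 18.5, 27.4 and 7.67 CPM (libraries of siYT_XMU), a log2 fold change of 2.94 ± 0.41 (adjusted p = 0.000223, edgeR). WDR45 had values of 13, 15.2 and 13.7 CPM for siC_XMU, next to 63.2, 104 and 46.0 CPM for siYT_XMU, a log2 fold change of 2.35 ± 0.27 (adjusted p = 6.27e-05, edgeR). Neither gene overlapped between the groups. ULK1 rose by 1.70 ± 0.25 (adjusted p = 0.000325, edgeR), TECPR1 by 1.69 ± 0.35, WIPI2 by 1.41 ± 0.20, WIPI1 by 1.40 ± 0.31, ATG13 by 1.25 ± 0.14 and MAP1LC3B by 1.03 ± 0.21. GABARAPL1 had a log2 fold change of 0.16 ± 0.32 and did not pass. ATG2A, ATG16L1 and ATG4A, which had risen in DMSO, had log2 fold changes of 0.42 ± 0.22, 0.57 ± 0.24 and 0.13 ± 0.23 and did not pass.

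ATG3 and ATG4C fell again, by 0.94 (SE 0.17, adjusted p = 0.00132, edgeR) and 1.28 (SE 0.29, adjusted p = 0.0049, edgeR) on the log2 scale. ATG3 measured 91.6, 83.1 and 74.4 CPM under siC_XMU and 42.0, 52.5 and 35.0 CPM under siYT_XMU, close to its levels in the DMSO arm. The class III PI3-kinase genes were split, with 2 of 5 higher and 2 lower. PIK3C3 rose by 0.86 ± 0.20 on the log2 scale and ATG14 by 0.80 ± 0.23 (adjusted p of 0.00512 and 0.0174, edgeR), and the call of ATG14 was lost without siC_XMU b (adjusted p = 0.0742) or siYT_XMU a (adjusted p = 0.0712). UVRAG was at 26.1, 26.4 and 30.6 CPM (libraries of siC_XMU) against 12.1, 20.9 and 9.74 CPM (libraries of siYT_XMU), a log2 fold change of -0.94 ± 0.29 (adjusted p = 0.0256, edgeR). PIK3R4 had values of 51.9, 52.2 and 49.7 CPM for siC_XMU, next to 39.2, 29.9 and 35.0 CPM for siYT_XMU, a log2 fold change of -0.56 ± 0.15 (adjusted p = 0.0140, edgeR). Neither call held when only the compared groups were fitted (adjusted p = 0.0516 for UVRAG and 0.0686 for PIK3R4). That of UVRAG was also lost without siC_XMU b, siC_XMU c, siYT_XMU a or siYT_XMU c (adjusted p of 0.0533, 0.0820, 0.0829 and 0.0650).

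The number of members that XMU-MP1 alone moved depended on the fit. In control siRNA 4 of 42 rose, 9.52% beside 4.0% of all genes tested, and 0 fell, beside 5.26% of all genes. At an unadjusted p under 0.05 the edgeR test gave 3 lower members, and the share of all genes at that threshold was not taken. DESeq2 called 1 lower, ULK2, and 1739 lower over all genes, where edgeR called 955. When only the compared groups were fitted, 10 members were called higher and 2 lower (ULK2 and VMP1). The higher calls over all genes then went from 725 to 1943 and the lower calls from 955 to 2101. The member with the smallest error among the rises was MAP1LC3B, which measured 65.5, 72.1 and 64.6 CPM under siC_DMSO and 169, 186 and 156 CPM under siC_XMU, a log2 fold change of 1.34 ± 0.21 (adjusted p = 0.00308, edgeR). ATG2A was at 55.4, 62.7 and 67.2 CPM (libraries of siC_DMSO) against 142, 213 and 152 CPM (libraries of siC_XMU), a log2 fold change of 1.45 ± 0.23 (adjusted p = 0.00308, edgeR). ATG4A stood at 8.53, 10.6 and 9.56 CPM and at 18.3, 21.6 and 18.8 CPM in the same groups, a log2 fold change of 1.03 ± 0.23 (adjusted p = 0.0159, edgeR). None of these overlapped between the groups. ULK1 stood at 39.1, 60.2 and 61.1 CPM in siC_XMU, above the 27.3 to 29.5 CPM of siC_DMSO, and its log2 fold change of 0.90 ± 0.25 passed (adjusted p = 0.0423, edgeR). The call of ULK1 was lost on leaving out any of 7 libraries, with adjusted p up to 0.162, and that of ATG4A on leaving out any of 4, with adjusted p up to 0.0831. GABARAPL1 (0.23 ± 0.32) and SQSTM1 (0.30 ± 1.57) did not pass.

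After the knockdown XMU-MP1 raised 1 of 42 members, 2.38% beside 4.19% of all genes tested, and lowered 2, 4.76% beside 7.92%. MAP1LC3B again rose, from 120.2, 206 and 184 CPM in siYT_DMSO to 289.8, 433 and 325 CPM in siYT_XMU, a log2 fold change of 1.04 ± 0.21 (adjusted p = 0.00805, edgeR). It was the only member called higher in all 4 group comparisons, and its mean level was 67.4 CPM in siC_DMSO, 171 CPM in siC_XMU, 169.8 CPM in siYT_DMSO and 349 CPM in siYT_XMU. STX17 had values of 35.0, 47.5 and 43.4 CPM for siYT_DMSO, next to 20.2, 22.4 and 26.9 CPM for siYT_XMU, a log2 fold change of -0.86 ± 0.18 (adjusted p = 0.00963, edgeR). ATG16L1 measured 44.6, 36.2 and 56.3 CPM under siYT_DMSO and 23.3, 32.2 and 22.0 CPM under siYT_XMU, a log2 fold change of -0.82 ± 0.24 (adjusted p = 0.0442, edgeR). When only the compared groups were fitted none of the 3 calls held (adjusted p of 0.0591 for MAP1LC3B, 0.0840 for STX17 and 0.105 for ATG16L1), and that of ATG16L1 was lost in 14 settings in all, including without siYT_XMU c (adjusted p = 0.0830). ULK1 (-0.49 ± 0.25), GABARAPL1 (-0.67 ± 0.32) and SQSTM1 (-1.50 ± 1.61) did not pass.

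**Figure D4:**
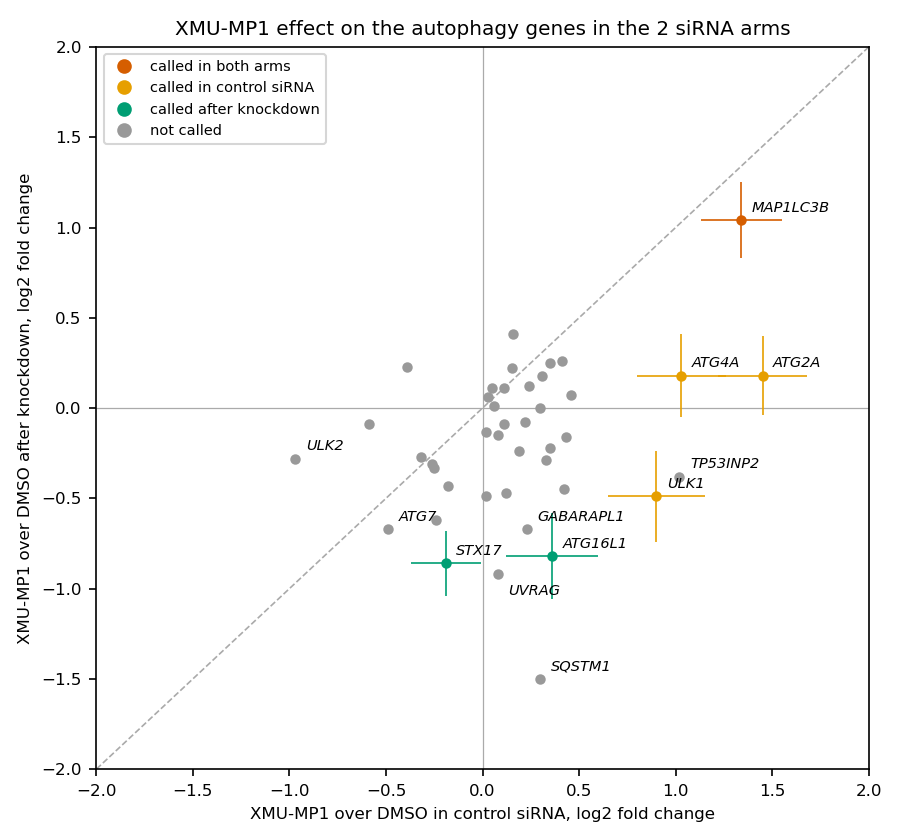
Log2 fold change of XMU-MP1 over DMSO for the 42 genes in control siRNA (x axis) and after the knockdown (y axis); bars are SE, drawn for called genes, and the dashed line marks equal effects. MAP1LC3B is called in both arms (1.34 and 1.04), ATG2A, ATG4A and ULK1 are called in control siRNA, and 34 of 42 points lie below the line.

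The interaction, the XMU-MP1 effect after the knockdown minus that in control siRNA, tests whether the drug effect differs between the siRNA arms. By edgeR 0 of 42 members were called higher and 0 lower, beside 0.860% and 1.73% of all genes tested. At an unadjusted p under 0.05 there were 0 higher and 9 lower members, and the share of all genes at that threshold was not taken. DESeq2 called 0 higher and 3 lower members, namely ATG2A, ULK1 and ATG16L1. Over all genes DESeq2 called 834 higher and 892 lower for the interaction, where edgeR called 156 and 314. The interaction estimate was below 0 for 34 of the 42, with a median of -0.27 over the members and 0.07 over all genes. For ATG2A it was -1.28 ± 0.32 (95% interval -1.97 to -0.58, adjusted p = 0.0582, edgeR) and for ULK1 -1.39 ± 0.35 (95% interval -2.15 to -0.63, adjusted p = 0.0593, edgeR). Each lies just above the threshold, and DESeq2 gave adjusted p of 0.00703 and 0.00930. For ULK1, leaving out 1 library at a time gave adjusted p of 0.0402 to 0.149 by edgeR. For MAP1LC3B the estimate was -0.30 ± 0.29 (95% interval -0.94 to 0.34, adjusted p = 0.653, edgeR), an interval that includes 0 and does not show that the effects are equal. For GABARAPL1 it was -0.89 ± 0.45 and for SQSTM1 -1.80 ± 2.24.

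Within families of paralogs, the share of each gene in the summed FPKM of its family gives a comparison inside each library. Among the ULK kinases ULK1 held 77.8 to 82.7% in siC_DMSO, 90.5 to 94.8% in siC_XMU, 96.3 to 98.5% in siYT_DMSO and 97.1 to 98.3% in siYT_XMU. The first 3 ranges do not overlap, and ULK2 made up the rest. ATG2A held 83.0 to 86.8% of the ATG2 sum in siC_DMSO and 92.6 to 97.6% over the other groups. In the WIPI family WDR45B led in siC_DMSO at 43.2 to 51.9%, and in siYT_DMSO WIPI2 led at 38.5 to 42.1%, with WDR45B at 22.7 to 28.3% and WDR45 at 29.5 to 32.9%. In siYT_XMU WIPI2 held 34.9 to 38.4% and WDR45 31.1 to 39.8%, and WDR45 led in library b. ATG4D held 56.2 to 59.7% of the ATG4 sum in siC_DMSO and 39.2 to 43.2% in siYT_XMU, where ATG4B reached 33.9 to 42.5%. ATG16L1 held 55.6 to 73.0% of the ATG16L sum in siC_DMSO and 82.9 to 87.3% in siYT_DMSO. Shares in the receptor family follow SQSTM1, which held 53.1 to 71.7% in siYT_DMSO and 0.000206 to 67.5% in siYT_XMU.

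The ATG8 family kept its order under the knockdown and shifted under XMU-MP1. GABARAP held 49.4 to 51.2% of the sum in siC_DMSO and 48.7 to 54.4% in siYT_DMSO, and MAP1LC3B held 16.8 to 17.8% and 16.5 to 19.3%. In siC_XMU GABARAP held 39.9 to 41.8% and MAP1LC3B 29.6 to 31.1%, ranges that do not overlap those of siC_DMSO. In siYT_XMU MAP1LC3B held 25.7 to 36.7%, above every library of the DMSO groups. MAP1LC3A remained a small part, at 0.653 to 1.25% in siC_DMSO and 2.06 to 3.99% in siYT_DMSO. GABARAPL1 held 5.79 to 8.99% in siC_DMSO and 2.92 to 3.71% in siYT_XMU.

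**Figure D5:**
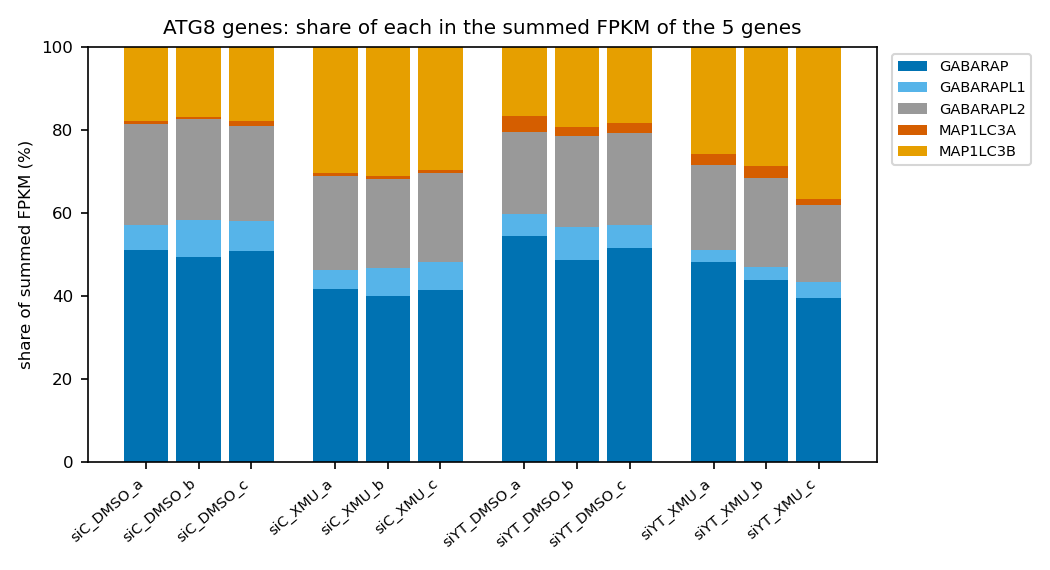
Share (%) of each ATG8 gene in the summed FPKM of the 5 genes, 1 bar for each library, with groups set apart. MAP1LC3B takes 16.8 to 17.8% in siC_DMSO and 29.6 to 31.1% in siC_XMU. In every library of siYT_DMSO the share of MAP1LC3A is larger, and that of GABARAPL2 smaller, than in any of siC_DMSO. The shares of GABARAP, GABARAPL1 and MAP1LC3B overlap between these groups.

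Because the members moved together, the 300 bases around their transcript starts (250 before to 50 after, RefSeq, GRCh38.p14) were searched on both strands for motifs of factors tied to YAP and TAZ or to autophagy genes. A window was given for 36 of the 42 members, 45 windows in all, since some genes have several starts. GGAATG, the core of the site bound by TEAD factors, was found in 8 of these 45 windows (17.8%), and in 14.0% of all 35116 windows. By gene it was found in 7 of 36 members (ATG7, ATG13, BECN1, GABARAPL2, OPTN, PIK3C3 and ULK1), which is 19.4% beside 16.7% of 27305 genes. All 7 were among the 24 members with a window that rose after the knockdown in DMSO, and 0 of the 12 others had it. The share with GGAATG among all genes that rose was not taken, so this split has no background beside it. These are matches of letters, the members were not drawn at random, and no binding was measured. The windows of ULK1, ATG13 and GABARAPL2 are shown because they are rising members of different roles that hold the match, with GGAATG or its reverse complement in capitals. The window of ATG3 is shown because it is the clearest falling member and the one member with TCACGTGA, a form of the CLEAR site bound by TFEB, in capitals. The windows lie at chr12:131894372-131894671 (plus strand), chr11:46617303-46617602 (plus strand), chr16:75566129-75566428 (plus strand) and chr3:112561913-112562212 (minus strand), each written 5′ to 3′ on the strand of its gene.
ULK1: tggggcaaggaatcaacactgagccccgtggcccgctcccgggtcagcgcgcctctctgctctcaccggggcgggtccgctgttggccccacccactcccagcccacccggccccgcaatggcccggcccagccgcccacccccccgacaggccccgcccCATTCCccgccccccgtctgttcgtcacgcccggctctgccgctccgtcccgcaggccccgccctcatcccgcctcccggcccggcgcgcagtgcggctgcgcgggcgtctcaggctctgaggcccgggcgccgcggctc
ATG13: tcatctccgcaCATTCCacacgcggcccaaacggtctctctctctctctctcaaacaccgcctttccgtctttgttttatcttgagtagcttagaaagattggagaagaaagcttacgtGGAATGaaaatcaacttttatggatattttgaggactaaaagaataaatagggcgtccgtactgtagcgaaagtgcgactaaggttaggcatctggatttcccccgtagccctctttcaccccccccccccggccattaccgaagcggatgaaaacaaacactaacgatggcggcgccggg
GABARAPL2: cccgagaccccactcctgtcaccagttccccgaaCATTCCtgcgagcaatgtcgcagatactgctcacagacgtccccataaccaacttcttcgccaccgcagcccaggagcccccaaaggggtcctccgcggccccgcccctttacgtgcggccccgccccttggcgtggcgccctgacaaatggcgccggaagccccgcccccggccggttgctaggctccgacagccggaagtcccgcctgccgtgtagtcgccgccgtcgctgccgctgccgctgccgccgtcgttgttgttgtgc
ATG3: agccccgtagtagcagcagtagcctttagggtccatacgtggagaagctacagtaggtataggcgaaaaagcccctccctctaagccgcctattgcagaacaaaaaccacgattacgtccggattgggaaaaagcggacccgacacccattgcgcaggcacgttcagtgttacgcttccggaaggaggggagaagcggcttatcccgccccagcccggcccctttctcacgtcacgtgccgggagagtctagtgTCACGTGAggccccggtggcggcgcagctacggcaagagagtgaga

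The match in ULK1 starts 90 bases before the transcript start, those in ATG13 start 239 and 131 bases before it, and that in GABARAPL2 starts 216 bases before it. The match in ATG3 starts at base 5 of the transcript. CACGTG, which lies inside TCACGTGA, was found in 2 of 45 member windows (4.44%), those of ATG3 and ATG14, and in 7.26% of all windows, and TCACGTGA in 2.22% and 0.980%. GTAAACA, the FOXO type of site, was found in 2 member windows (4.44%, CALCOCO2 and WDR45) and in 3.42% of all. TGANTCA, the AP-1 site, and TGATGNAA, the site of ATF4 and its partners, were each found in 1 member window (2.22%), which belongs to WDR45, and in 7.71% and 3.62% of all. GGGCGG, the GC box, was found in 32 member windows (71.1%) and in 45.0% of all. By gene, GGGCGG was found in 18 of the 24 members that rose in DMSO and in 9 of the 12 others. In the same order CACGTG and GTAAACA were each found in 1 and 1, TGANTCA and TGATGNAA in 1 and 0, and TCACGTGA in 0 and 1.

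Other genes of the pathway were followed in lists chosen by function, beside which stand the shares of all genes tested: 16.1% higher and 16.0% lower after the knockdown in DMSO, and 17.7% and 18.6% in XMU-MP1. Of 20 receptors of selective autophagy outside the members, 19 were tested, and 9 rose and 1 fell after the knockdown in DMSO (median log2 fold change 0.48). PINK1, the kinase that marks damaged mitochondria, rose by 2.60 ± 0.38 on the log2 scale and BNIP3L (NIX), a mitochondrial receptor, by 1.56 ± 0.16, while PHB2, an inner-membrane receptor, fell by 0.77. The call of PHB2 did not hold in every fit without 1 library (adjusted p up to 0.0525, edgeR). Of 14 genes for fusion with the lysosome 9 rose and 0 fell by edgeR (median 0.96), and 0 fell at an unadjusted p under 0.05 or by DESeq2. Those that rose include RAB7A, the GTPase of late endosomes (1.82 ± 0.17), and VAMP8, the SNARE partner of STX17 (1.46 ± 0.21). In XMU-MP1 the same lists gave 7 higher and 3 lower, and 6 higher and 2 lower.

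Of 20 genes of nutrient and energy sensing, the mTORC1 and AMPK pathways that act on ULK1, 3 rose and 2 fell in DMSO and 2 rose and 7 fell in XMU-MP1, with medians of 0.01 and -0.35. Both counts in DMSO, and the rises in XMU-MP1, are smaller shares of the list than those of all genes tested. The 7 falls in XMU-MP1 are a larger share of the list than the 18.6% of all genes tested. TSC2, a brake on mTORC1, rose in either arm (1.25 ± 0.20 and 1.58 ± 0.21), and PRKAG2, an AMPK subunit, fell in either (by 0.84 and 0.70). RPTOR, a subunit of mTORC1, was the other rise in XMU-MP1, at 1.12 to 1.5 over the fits without 1 library. PRKAB1, an AMPK subunit, also fell in XMU-MP1 (-1.38 to -0.96 over those fits). In DMSO SESN3 also rose (1.7 to 2.74) and DDIT4 also fell (-1.78 to -1.27). Both of these calls were lost in some fits (adjusted p up to 0.0512 and 0.0883, edgeR). Among 6 tested partners of the class III PI3-kinase, NRBF2, a subunit of the ATG14 complex, rose by 2.18 ± 0.20 in DMSO and by 0.75 ± 0.20 in XMU-MP1. ATG9B, the paralog of ATG9A, was at 0.00, 0.00 and 0.110 CPM for siC_DMSO, and siC_XMU had 0.241, 0.279 and 0.197 CPM. It was at 38.6, 92.9 and 105 CPM in siYT_DMSO and 38.7, 179 and 91.8 CPM in siYT_XMU (adjusted p of 1.18e-05 and 2.16e-05, edgeR), so every knockdown library lay far above every control siRNA library. No fold is given, since its control libraries held almost no counts.

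Of 10 tested transcription factors of autophagy and lysosome genes, 3 rose and 1 fell after the knockdown in DMSO, and 1 rose and 3 fell in XMU-MP1. TFEB, the main factor of lysosome genes, had 5.70, 6.68 and 5.21 CPM under siC_DMSO against 1.54, 1.12 and 1.41 CPM under siC_XMU. After the knockdown it had 21.1, 17.1 and 17.6 CPM with DMSO against 1.56, 3.27 and 0.829 CPM with XMU-MP1. It was low in all 6 XMU-MP1 libraries, with log2 fold changes of -2.11 ± 0.40 (adjusted p = 0.00741, edgeR) and -3.21 ± 0.42 (adjusted p = 0.000703, edgeR) in the siRNA arms. Its 0.829 CPM in siYT_XMU c lies close to the 0.622 CPM that 3 counts give in that library. ATF4, the factor of the amino acid response, rose with XMU-MP1 in either arm, by 1.31 ± 0.32 (adjusted p = 0.0267, edgeR) and 1.61 ± 0.33 (adjusted p = 0.00820, edgeR), but the call in control siRNA was lost without siC_DMSO b, siC_DMSO c, siC_XMU a or siC_XMU b (adjusted p up to 0.0959). After the knockdown in DMSO ATF4 fell, by 1.05 on the log2 scale (SE 0.32, adjusted p = 0.0266, edgeR), a call that was lost on leaving out any of 5 libraries (adjusted p up to 0.137). FOXO3 and FOXO4 rose after the knockdown in DMSO, by 1.58 ± 0.22 and 1.81 ± 0.28.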

How the data were processed

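RNA sequencing of 12 MCF10A libraries gave 1 deposited table for all samples. Per the labels, polyadenylated RNA was sequenced as stranded paired-end libraries. Per the file headers, the authors deposited whole-number counts and FPKM for each gene and library. Per the submitters' processing notes, cutadapt, FastQC, HISAT2, StringTie and edgeR were used on GRCh38.p13; versions, roles and the counting settings are not given in the sources used here.

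Counts were fitted in R 4.3.3 with edgeR 4.0.16 (filterByExpr, TMM, quasi-likelihood test, 4 group means, 12 libraries, 8 residual degrees of freedom). P-values are two-sided and Benjamini-Hochberg adjusted over 18143 genes, and a gene is called under 0.05. SE is the log2 fold change divided by the root of F. No label says that the letters mark separate cultures, so p-values cover the spread among these libraries, which may be technical. A count of 0 allows 3 counts, 0.0382 to 0.622 CPM by library. No correction for depth or ribosomal RNA was made.

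Members and lists were chosen with earlier results of these data known. In every comparison the rule for naming took ULK1, SQSTM1, MAP1LC3B and GABARAPL1. It also took up to 6 called rises and 6 called falls of largest size without overlap between libraries, and members called for the interaction. From each other list it took up to 2 rises and 2 falls of smallest adjusted p, and not all of these are given above. Paralogs are named for shares. Other members are given by role. Alternatives were DESeq2 1.42.0, RLE size factors, other filters, a replicate block, the compared groups only and leaving out each library.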

Additional observations from a re-analysis of the deposited data

Results flagged for a closer look

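None of the 42 members passed the edgeR test of the difference in XMU-MP1 effect between the siRNA arms (9 had an unadjusted p under 0.05, and DESeq2 called 3), but 4 genes of the other autophagy lists did, all lower. They came 1 each from lists of 6, 10, 14 and 19 tested genes, and the lists of 20 and 3 tested genes gave 0. Over all genes tested 0.860% were called higher and 1.73% lower, so lower calls were the more frequent there too. NRBF2, a subunit of the ATG14 complex, had an interaction of -1.43 ± 0.28 on the log2 scale (adjusted p = 0.0255, edgeR). Its level was 9.99 ± 0.970 CPM (SD, n = 3) in siC_DMSO, 15.5 ± 1.82 CPM in siC_XMU, 45.2 ± 6.68 CPM in siYT_DMSO and 26.0 ± 4.09 CPM in siYT_XMU. FOXO3, a transcription factor, had -1.53 ± 0.31 (adjusted p = 0.0281, edgeR), with means of 53.6, 74.8, 160.3 and 77.8 CPM in the same order of groups. VPS18, a core subunit of the HOPS tethering complex, had -2.18 ± 0.33 (adjusted p = 0.00928, edgeR), with means of 40.4, 52.9, 101 and 29.3 CPM. TBK1, the kinase that phosphorylates OPTN and SQSTM1, had -2.12 ± 0.37 (adjusted p = 0.0182, edgeR), with means of 38.6, 42.2, 49.7 and 12.2 CPM. All 4 genes were lower in every library of siYT_XMU than in any of siYT_DMSO. Only the call of VPS18 held on leaving out each library in turn, while that of NRBF2 and that of FOXO3 were each lost on leaving out 7 libraries (adjusted p up to 0.0839 and 0.0835) and that of TBK1 on leaving out 5 (adjusted p up to 0.0599).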

How the results depend on the processing

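Of 28 member calls for the knockdown in DMSO, 25 held in every setting, of 24 in XMU-MP1 17, of 4 for XMU-MP1 in control siRNA 2 (ATG2A and MAP1LC3B), and of 3 after the knockdown 0. Fitting the compared groups only gave 2 lower members for the knockdown in XMU-MP1 (4 in the shared fit), 10 higher and 2 lower for XMU-MP1 in control siRNA (4 and 0) and 0 higher and 0 lower after the knockdown (1 and 2). Over all genes the higher calls for XMU-MP1 in control siRNA were 1943 in that fit and 725 in the shared fit, and the lower calls 2101 and 955. DESeq2 gave 1 lower for XMU-MP1 in control siRNA, 3 higher and 4 lower after the knockdown, and 3 lower for the interaction (0 by edgeR). Over all genes the lower calls for the interaction were 892 by DESeq2 and 314 by edgeR. Those for XMU-MP1 in control siRNA were 1739 and 955. After the knockdown DESeq2 called 1656 higher and 1942 lower over all genes, and edgeR 761 and 1437. RLE size factors and no filter each gave 1 lower after the knockdown, and no filter 1 lower for the interaction. RLE size factors moved the median of all genes by at most 0.09 on the log2 scale.

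Leaving out 1 library at a time gave 24 to 28 higher and 1 to 2 lower for the knockdown in DMSO, 17 to 20 and 3 to 6 in XMU-MP1, 2 to 5 and 0 to 1 for XMU-MP1 in control siRNA, 1 to 1 and 1 to 5 after the knockdown, and 0 to 0 and 0 to 3 for the interaction. The 5 lower members after the knockdown and the 3 for the interaction were reached without siYT_XMU b. Over all genes the fits without 1 library gave 2191 to 3487 higher and 2241 to 3612 lower for the knockdown in DMSO. In XMU-MP1 they gave 2307 to 3710 and 2589 to 3602. For XMU-MP1 they gave 260 to 1134 and 369 to 1527 in control siRNA, and 372 to 1277 and 787 to 1608 after the knockdown. For the interaction they gave 32 to 398 and 54 to 608. Signs reversed without a call for GABARAPL1 in the knockdown in XMU-MP1 without siC_XMU a (-0.01) or siYT_XMU b (-0.03), where leaving out 1 library gave -0.03 to 0.31, and for SQSTM1 in XMU-MP1 in control siRNA without siC_XMU b (-0.06, range -0.06 to 1.02). SQSTM1 for the knockdown in XMU-MP1 reversed with the replicate block (-0.94) and, with a call, without siYT_XMU b (-6.44, range -6.44 to 1.45). The cause was not tested.

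Residuals of same-letter libraries correlated at 0.01 to 0.25, with 8 of 18 over 0.1, and all 12 libraries correlated best with their own letter, a hint from the data and not from the design. The replicate block gave 2 lower for the interaction, ULK1 (-1.36) and ATG2A (-1.25), and left the other counts within 1.5 times. Under it ATG4B passed for the knockdown in DMSO, ATG2A and ATG4D passed for it in XMU-MP1, and for XMU-MP1 after the knockdown GABARAPL1 (-0.61, adjusted p = 0.0478, edgeR) and NBR1 passed and ATG16L1 did not. The planned comparison of family shares by FPKM with shares by counts per kilobase was not run, since the table gives no gene lengths. Depth limits siYT_XMU c most, where 3 counts are 0.622 CPM.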
